A study of Mus musculus with 9 samples.

Results

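Glycolysis splits glucose into pyruvate and yields ATP without oxygen. Its genes here were a set of 10: the glucose transporter Slc2a1, the hexokinases Hk1 and Hk2, the phosphofructokinase subunits Pfkl and Pfkp, and the lower-pathway enzymes Aldoa, Pgk1, Eno1, Pkm and Ldha. Of these 10 genes, 3 had a probe among the 785 probes of the NanoString nCounter Mouse Immune Exhaustion panel: Aldoa (transcript NM_007438.4), Pgk1 (NM_008828.2) and Ldha (NM_010699.1). The other 7 (Slc2a1, Hk1, Hk2, Pfkl, Pfkp, Eno1 and Pkm) were matched to none of the 751 probes that carried a gene symbol, so glucose uptake by Slc2a1 and the early steps of the pathway were not measured. Resting T-cells oxidise much of their fuel in mitochondria. After activation they take up more glucose and release part of it as lactate, and growth signals through PI3K, AKT and mTOR as well as the transcription factors MYC and HIF-1 are known to raise glycolytic genes.

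RNA was counted in T-cells taken from the bone marrow of wild-type C57BL/6 mice on day 7 with a pan-T-cell isolation kit. The 3 groups, of 3 samples each, were leukemia-free mice, leukemia-bearing mice given vehicle, and leukemia-bearing mice given recombinant interleukin-12 (rIL-12), a cytokine that activates T-cells and natural killer cells. The leukemia was a single B-cell acute lymphoblastic leukemia line driven by BCR-ABL1 on an Arf-/- background, carrying luciferase and GFP. It was injected into recipients that had not been irradiated, and day 7 is counted from this transfer. By the study's methods, rIL-12 was injected daily into the peritoneum, starting 3 days after the transfer. The labels call the vehicle group untreated, whereas the study's methods call it vehicle treated. The methods allocate 3 mice to each group, so each of the 3 samples of a group is taken as 1 mouse.

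Total counts ran from 257613 (vehicle mouse 3) to 711748 (rIL-12 mouse 2), and the group medians were 478670 (no leukemia), 486628 (vehicle) and 625318 (rIL-12). Counts of the 3 glycolysis genes lay between 2074 and 11821, far above the 53 to 114 counts of a lymphocytic choriomeningitis virus probe, and the lowest of them has a counting error of 2.2%. Of 11 T-cell markers, Cd8a was above the viral probe in 5 mice and the others, including Cd3d, Cd3e and Cd3g, in all 9. Counts of Cd3d were 331 to 1753, and those of Tyrobp, a myeloid and natural killer cell adaptor, were 3498 to 9963. In this bulk RNA, fewer cells of a type and less RNA per cell cannot be told apart. Normalized counts below are counts divided by each mouse's relative library size, from the trimmed mean of M-values (TMM), and a gene passed the test when its Benjamini-Hochberg adjusted p over the 785 probes was under 0.05 and its change at least 1.5-fold.

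The promoters of the 3 measured genes are given first because all 3 are textbook targets of HIF-1. The sequence ACGTG is a form of the core of the HIF-1 binding motif, and other forms were not marked or counted. Each window runs from 250 bases before to 50 bases after an annotated RefSeq start, in build GRCm38.p6, read 5′ to 3′ on the gene's strand, with every ACGTG on either strand (written CACGT on the opposite one) in capitals. Where both forms overlap as CACGTG, both were counted. ACGTG was found on either strand in 19.6% of the 32851 promoter windows of the same length. Aldoa has 3 annotated windows, with 0, 1 and 1 matches, the last pair overlapping each other, and the first of that pair is shown (chr7:126799205-126799504, minus strand). Pgk1 has a single window (chrX:106186850-106187149, plus strand) with 2 matches. Ldha has 2 windows with 5 and 0 matches, and the first is shown (chr7:46845554-46845853, plus strand); its 5 matches include 2 CACGTG. These letters are a description and do not show binding.
Aldoa: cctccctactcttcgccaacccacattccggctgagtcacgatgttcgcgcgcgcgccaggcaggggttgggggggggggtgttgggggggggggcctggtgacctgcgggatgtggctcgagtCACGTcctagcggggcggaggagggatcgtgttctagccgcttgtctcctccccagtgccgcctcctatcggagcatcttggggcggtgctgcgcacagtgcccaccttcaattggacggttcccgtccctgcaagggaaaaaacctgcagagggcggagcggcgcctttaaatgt
Pgk1: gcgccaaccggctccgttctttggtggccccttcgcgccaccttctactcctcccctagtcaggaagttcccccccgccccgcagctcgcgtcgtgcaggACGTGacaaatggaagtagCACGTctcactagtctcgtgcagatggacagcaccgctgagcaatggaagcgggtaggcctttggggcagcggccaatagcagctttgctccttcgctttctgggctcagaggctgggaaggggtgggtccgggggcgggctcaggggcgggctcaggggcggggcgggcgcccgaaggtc
Ldha: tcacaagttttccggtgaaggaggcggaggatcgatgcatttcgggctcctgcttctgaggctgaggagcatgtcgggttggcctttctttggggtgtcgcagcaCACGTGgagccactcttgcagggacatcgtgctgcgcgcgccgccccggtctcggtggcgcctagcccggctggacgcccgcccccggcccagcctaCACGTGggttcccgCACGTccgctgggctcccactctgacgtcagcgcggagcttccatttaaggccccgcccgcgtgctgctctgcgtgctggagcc

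With TMM scaling, Pgk1 passed as higher in leukemia-bearing mice given rIL-12 than in mice without leukemia. Those groups differ in both leukemia and rIL-12, and no group had rIL-12 without leukemia. The parts of leukemia and rIL-12 in that difference cannot be told apart. Against vehicle Pgk1 did not pass, and some other scalings ended its call. No other glycolysis gene passed in any comparison. Described in the order of the pathway, aldolase A (Aldoa) cleaves fructose bisphosphate into a pair of 3-carbon sugars. Its normalized counts were 8456, 9076 and 7340 without leukemia, 9811, 10730 and 8818 with vehicle, and 8209, 7591 and 10310 with rIL-12. The groups overlapped in every comparison. The log2 fold change was 0.24 ± 0.171 (SE) with vehicle against no leukemia (adjusted p = 0.62, edgeR), 0.07 ± 0.171 with rIL-12 against no leukemia (adjusted p = 0.832) and -0.17 ± 0.171 with rIL-12 against vehicle (adjusted p = 0.519).

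Phosphoglycerate kinase 1 (Pgk1) makes the first ATP that the pathway gains. Its normalized counts were 3733, 3451 and 3697 without leukemia, 3953, 3889 and 3908 with vehicle, and 5004, 6692 and 4956 with rIL-12. All 3 rIL-12 treated mice were above all 6 other mice, and rIL-12 mouse 2 was the highest. With rIL-12 against no leukemia the change was 1.53-fold (95% interval 1.21 to 1.94), a log2 fold change of 0.61 ± 0.157 (adjusted p = 0.0157, edgeR), and it passed. With rIL-12 against vehicle it was 1.42-fold (1.12 to 1.79), a log2 fold change of 0.50 ± 0.157 with adjusted p = 0.0465, below the fold required. With vehicle against no leukemia the log2 fold change was 0.11 ± 0.157 (adjusted p = 0.82), although the vehicle mice, 3889 to 3953, were all above the mice without leukemia, 3451 to 3733. An exact two-sided permutation test of 3 against 3 cannot give a p below 0.1, which is what it gave for each of the 3 Pgk1 comparisons.

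Lactate dehydrogenase A (Ldha) converts pyruvate to lactate and regenerates NAD+. Its normalized counts were 3061, 3413 and 2911 without leukemia, 3723, 4821 and 3407 with vehicle, and 3517, 4402 and 4709 with rIL-12. The rIL-12 mice were all above the mice without leukemia, while the vehicle mice overlapped both other groups. The log2 fold change was 0.43 ± 0.176 with rIL-12 against no leukemia (adjusted p = 0.11, edgeR), 0.35 ± 0.176 with vehicle against no leukemia (adjusted p = 0.387) and 0.08 ± 0.176 with rIL-12 against vehicle (adjusted p = 0.795).

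**Figure D1:**
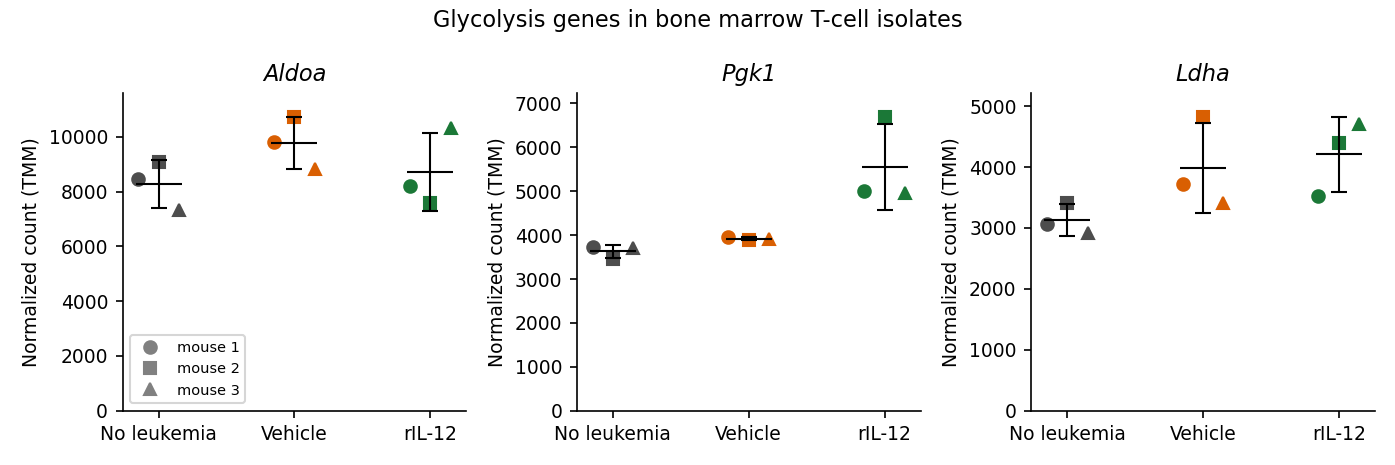
TMM-normalized counts (vertical axis, starting at 0) of Aldoa, Pgk1 and Ldha in each mouse; symbols mark the mouse number, the horizontal bar is the group mean and the whiskers are 1 SD (n = 3). Pgk1 was at 4956 to 6692 with rIL-12 and at 3451 to 3953 in the other 6 mice, whereas the groups overlapped for Aldoa.

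Read against all probes, 0 of the 3 genes passed with vehicle against no leukemia, where 2.68% of the 785 probes did. With rIL-12 against no leukemia 1 of 3 passed, where 17.6% of probes did, and with rIL-12 against vehicle 0 of 3 passed, where 13.8% did. On adjusted p alone the genes gave 0, 1 and 1 of 3, against 2.68%, 19.7% and 15.7% of probes. Groups did not overlap for 1, 2 and 1 of the 3 genes, against 22.5%, 35.5% and 30.7% of probes. The median log2 fold change of the 3 genes was 0.24, 0.43 and 0.08 in that order, and that of all probes 0.05, 0.02 and -0.08. In the comparison of rIL-12 with no leukemia, 85 of the 785 probes had a larger log2 fold change than Pgk1 under TMM and 234 did under quantile normalization.

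The comparison depended on how the mice were scaled. For Pgk1 with rIL-12 against no leukemia, the log2 fold change was 0.60 (adjusted p = 0.0243, edgeR) with the size factors of DESeq2 and 0.69 (adjusted p = 0.0168) with the median count of each mouse, and both passed. It was 0.43 (adjusted p = 0.0466) with the total count, 0.31 (adjusted p = 0.144) with 11 housekeeping genes and 0.24 (adjusted p = 0.251) with quantile normalization, and none of these passed. Pgk1 stayed higher with rIL-12 under all 7 scalings, including housekeeping genes without the metabolic genes G6pdx and Sdha, where it was 0.36 (adjusted p = 0.107). Against vehicle, Pgk1 ranged from 0.09 with housekeeping scaling to 0.64 with median scaling, which alone among the scalings passed (adjusted p = 0.03). The direction of Aldoa with rIL-12 against no leukemia turned, from 0.07 to -0.10 with the total count, -0.21 with the housekeeping genes and -0.19 with quantile normalization. The direction of Ldha with rIL-12 against vehicle turned likewise, from 0.08 to -0.10, -0.31 and -0.14. Over all 785 probes, the log2 fold changes with rIL-12 against no leukemia had a median of 0.02 with TMM, -0.15 with the total count, -0.27 with housekeeping scaling and 0.04 with quantile normalization, so relative to all probes Pgk1 was higher under each. Aldoa was above this median except with quantile normalization. With rIL-12 against vehicle the median of all probes was -0.08 with TMM, -0.28 with the total count, -0.49 with housekeeping scaling and -0.002 with quantile normalization. Ldha was above that median except with quantile normalization, so its turn with the total count and housekeeping scaling moved with all probes.

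Under TMM, 10 of the 11 housekeeping genes had positive log2 fold changes in both comparisons with rIL-12. Their median log2 fold change was 0.34 against no leukemia, with 2 of 11 passing as higher (Ubb and Sdha) where 8.92% of all probes did, and 0.40 against vehicle, with 4 of 11 (Ubb, Tbp, Abcf1 and Sdha) where 8.54% of probes did. Their summed normalized count was 39090 to 41780 without leukemia, 35170 to 41190 with vehicle, and 57240, 62350 and 45770 in rIL-12 mice 1, 2 and 3. Which reference is the better one for Pgk1 was not tested. The Pgk1 call against no leukemia also depended on single mice. It was lost without rIL-12 mouse 2 (0.46, adjusted p = 0.0686, edgeR), and without mouse 1, 2 or 3 of the group without leukemia (0.66, 0.58 and 0.68, adjusted p = 0.0744, 0.0698 and 0.0525).

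**Figure D2:**
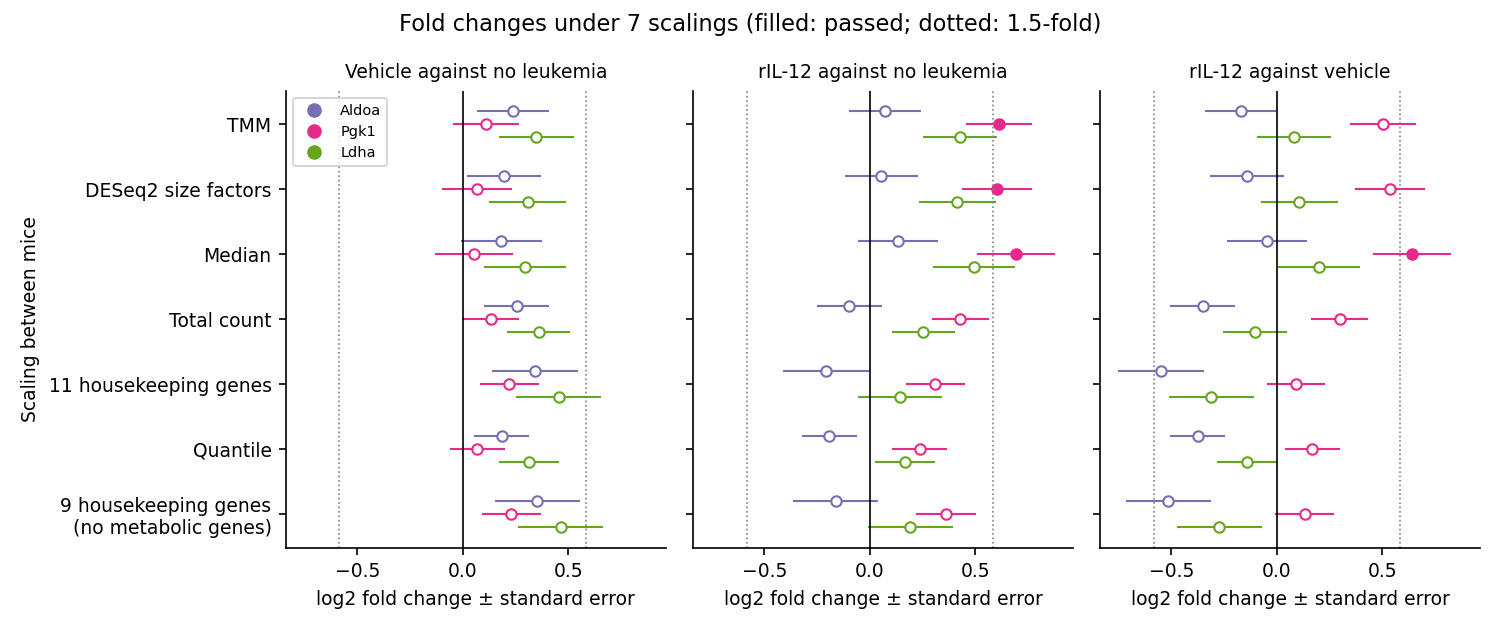
log2 fold changes (horizontal axis) with standard errors of Aldoa, Pgk1 and Ldha under 7 ways of scaling the mice (rows), 1 panel per comparison; filled points passed the test and dotted lines mark 1.5-fold. Pgk1 with rIL-12 against no leukemia lay between 0.24 and 0.69 and was right of 0 in every row, while Aldoa in the same panel lay on both sides of 0.

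A ratio of a pair of probes within a mouse does not move with the scaling between mice, although its level also depends on how well each probe captures its RNA. The Pgk1 to Aldoa ratio was 0.441, 0.38 and 0.504 without leukemia, 0.403, 0.362 and 0.443 with vehicle, and 0.61, 0.882 and 0.481 with rIL-12. The rIL-12 mice were all above the vehicle mice, a 1.59-fold difference (log2 0.67; exact two-sided permutation p = 0.1, the smallest possible; adjusted p = 0.45 over 9 ratio tests), and overlapped the mice without leukemia (1.45-fold, exact permutation p = 0.2, adjusted p = 0.45). Without any 1 mouse, the log2 difference against vehicle lay between 0.43 and 0.87.
The Ldha to Aldoa ratio was 0.362, 0.376 and 0.397 without leukemia, 0.379, 0.449 and 0.386 with vehicle, and 0.428, 0.58 and 0.457 with rIL-12. The rIL-12 mice were all above the mice without leukemia, by 1.28-fold (exact permutation p = 0.1, adjusted p = 0.45), and overlapped the vehicle mice. The Pgk1 to Ldha ratio overlapped between groups in every comparison. No ratio passed after adjustment, and the design could not have given an unadjusted p below 0.1.

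**Figure D3:**
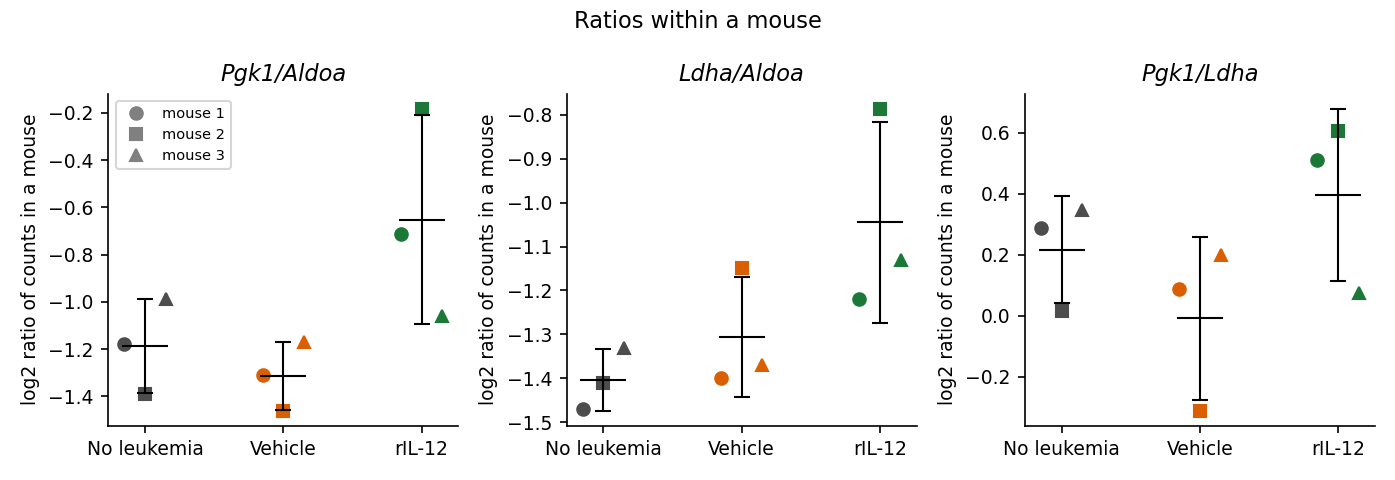
log2 ratio of the counts of 2 glycolysis genes in the same mouse (vertical axis), by group, with the group mean and 1 SD (n = 3). For Pgk1 over Aldoa the vehicle mice lay below all rIL-12 mice, the highest of which was mouse 2, and for Pgk1 over Ldha the groups overlapped.

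The probe whose pattern over the 9 mice was most like that of Pgk1 was Nras, a small GTPase of growth factor signalling. Its log2 normalized counts, centred on their mean, differed from those of Pgk1 by a root mean square of 0.111, where the spread of Pgk1 itself was 0.287. The log2 fold change of Nras with rIL-12 against no leukemia was 0.47, and it did not pass.

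Of a wider list of 40 genes of glucose transport, glycolysis, lactate and pyruvate metabolism, 6 had a probe. Pdhb, a subunit of the pyruvate dehydrogenase complex that carries pyruvate into the mitochondrial cycle, was the only one of the 6 to pass, and it rose with rIL-12. As higher, 1 of 6 passed in each comparison with rIL-12, where 8.92% of all probes did against no leukemia and 8.54% against vehicle. With so few genes these counts are a description. The normalized counts of Pdhb were 834.7, 735.8 and 847.5 without leukemia, 755, 633.5 and 675.1 with vehicle, and 1394, 1676 and 844.2 with rIL-12. The rIL-12 mice were all above the vehicle mice, by a log2 fold change of 0.92 ± 0.215 (adjusted p = 0.0164, edgeR), but rIL-12 mouse 3 lay within the group without leukemia, against which the change was 0.69 ± 0.214 (adjusted p = 0.0389). Against no leukemia, Pdhb passed under 2 of 6 other scalings and in 2 of 9 fits that left out 1 mouse. The fits that lost it left out a mouse without leukemia (1, 2 or 3), vehicle mouse 2 or 3, or rIL-12 mouse 1 or 2, and the log2 fold change over the 9 fits ran from 0.47 to 0.93. Against vehicle it passed under 4 of 6 scalings and in 6 of 9 such fits (not without vehicle mouse 2 or 3 or rIL-12 mouse 2; 0.70 to 1.16).

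The glucose transporters with a probe were Slc2a3 and Slc2a6. Slc2a3, a high-affinity transporter of lymphocytes and neurons, had normalized counts of 148.2, 133.2 and 128.3 without leukemia, 118.1, 101.7 and 111.7 with vehicle, and 133.7, 136.2 and 112.9 with rIL-12, close to the viral probe. The vehicle mice were below the mice without leukemia (log2 fold change -0.30 ± 0.169, adjusted p = 0.443, edgeR). Slc2a6, a lysosomal hexose transporter, went the other way, at 111.6, 175 and 152 without leukemia, 194.5, 222.4 and 220.1 with vehicle and 150.7, 164.7 and 178 with rIL-12, a log2 fold change of 0.53 ± 0.189 with vehicle (adjusted p = 0.171). With the housekeeping genes as reference it passed as lower with rIL-12 against vehicle (-0.77, adjusted p = 0.0318), where TMM gave -0.37 (adjusted p = 0.187). Pck1 and Pdk4 were at or near the counts of the viral probe and did not pass.

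Among 38 regulators of glycolysis, 14 had a probe. With vehicle against no leukemia 0 of 14 passed, where 2.68% of all probes did. With rIL-12 against no leukemia 2 of 14 were lower, where 8.66% of all probes were: Pik3cd, the leukocyte PI3K catalytic subunit (log2 fold change -0.89, adjusted p = 0.00629, edgeR), and Cd28, the T-cell co-stimulatory receptor that signals through PI3K (-0.90, adjusted p = 0.048). Pik3cd was at 3081, 2400 and 2549 without leukemia and 1426, 1154 and 1756 with rIL-12, without overlap, and passed under all 6 other scalings and in all 9 fits without 1 mouse. Cd28 passed under all 6 scalings and in only 2 of those 9 fits. It was lost without any 1 of the mice without leukemia, vehicle mouse 1 or 3, or rIL-12 mouse 1 or 2, and its log2 fold change over the 9 fits ran from -1.32 to -0.66. Against vehicle, Pik3cd was lower with rIL-12 (-0.63, adjusted p = 0.0447) and Prkaa1, the AMPK catalytic subunit that responds to low energy, was higher (0.64, adjusted p = 0.025), so 1 of 14 rose and 1 fell, where 8.54% and 5.22% of all probes did. Both changed with the processing: Pik3cd against vehicle passed in 1 of 9 fits without 1 mouse (the fit without rIL-12 mouse 3), at -0.79 to -0.49, and under 4 of 6 other scalings (not DESeq2 size factors or median scaling), and Prkaa1 in 5 of 9 (not without vehicle mouse 2 or 3 or rIL-12 mouse 1 or 2), at 0.54 to 0.77, and under 2 of 6 other scalings.

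Of 61 genes of oxidative, fatty acid, glutamine and pentose phosphate metabolism, 14 had a probe. With vehicle against no leukemia 0 of these 14 passed, where 2.68% of all probes did. With rIL-12 3 of 14 rose in both comparisons and none fell, where 8.92% of all probes rose against no leukemia and 8.54% against vehicle. With so few genes these counts are a description. They were Sdha, a subunit of succinate dehydrogenase in the respiratory chain, and Acadl and Hadhb, enzymes of mitochondrial fatty acid oxidation. Acadl was at 826.3, 821.3 and 839.9 without leukemia, 933.6, 993.9 and 780.3 with vehicle, and 1446, 1797 and 1073 with rIL-12, without overlap with either group. Its log2 fold change was 0.79 against no leukemia (adjusted p = 0.0095, edgeR) and 0.67 against vehicle (adjusted p = 0.032).
Hadhb was at 1195, 1017 and 1228, then 1071, 1071 and 954.4, and then 1852, 2712 and 1366, with log2 fold changes of 0.79 (adjusted p = 0.0213) and 0.94 (adjusted p = 0.0155). Sdha was at 784.6, 664.2 and 858.9, then 757, 565.5 and 588.1, and then 1313, 1406 and 843.1, with 0.63 (adjusted p = 0.0484) and 0.90 (adjusted p = 0.0155), and rIL-12 mouse 3 lay within the range without leukemia. In all 3 genes, as in Pdhb, rIL-12 mouse 2 was highest and mouse 3 lowest of the rIL-12 mice. None of the 3 passed under either housekeeping scaling in either comparison, where the log2 fold changes stayed above 0. Of the 6 other scalings, Acadl passed under 4 against no leukemia and 2 against vehicle, where the total count and quantile normalization also ended the call. Hadhb passed under 3 in each comparison, and quantile normalization ended both calls. Sdha passed under 1 against no leukemia, the median scaling, and under 4 against vehicle. Without rIL-12 mouse 2 none of the 3 passed in either comparison, and without mouse 1 of the group without leukemia none passed against that group. Other single mice ended some of these calls. Against no leukemia, Sdha was also lost without mouse 2 or 3 of that group, vehicle mouse 2 or 3 or rIL-12 mouse 1, and Hadhb without mouse 2 or 3 of that group. Against vehicle, Sdha and Hadhb were also lost without vehicle mouse 2 or 3, and Acadl without any vehicle mouse, rIL-12 mouse 1 or mouse 1 of the group without leukemia.

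**Figure D4:**
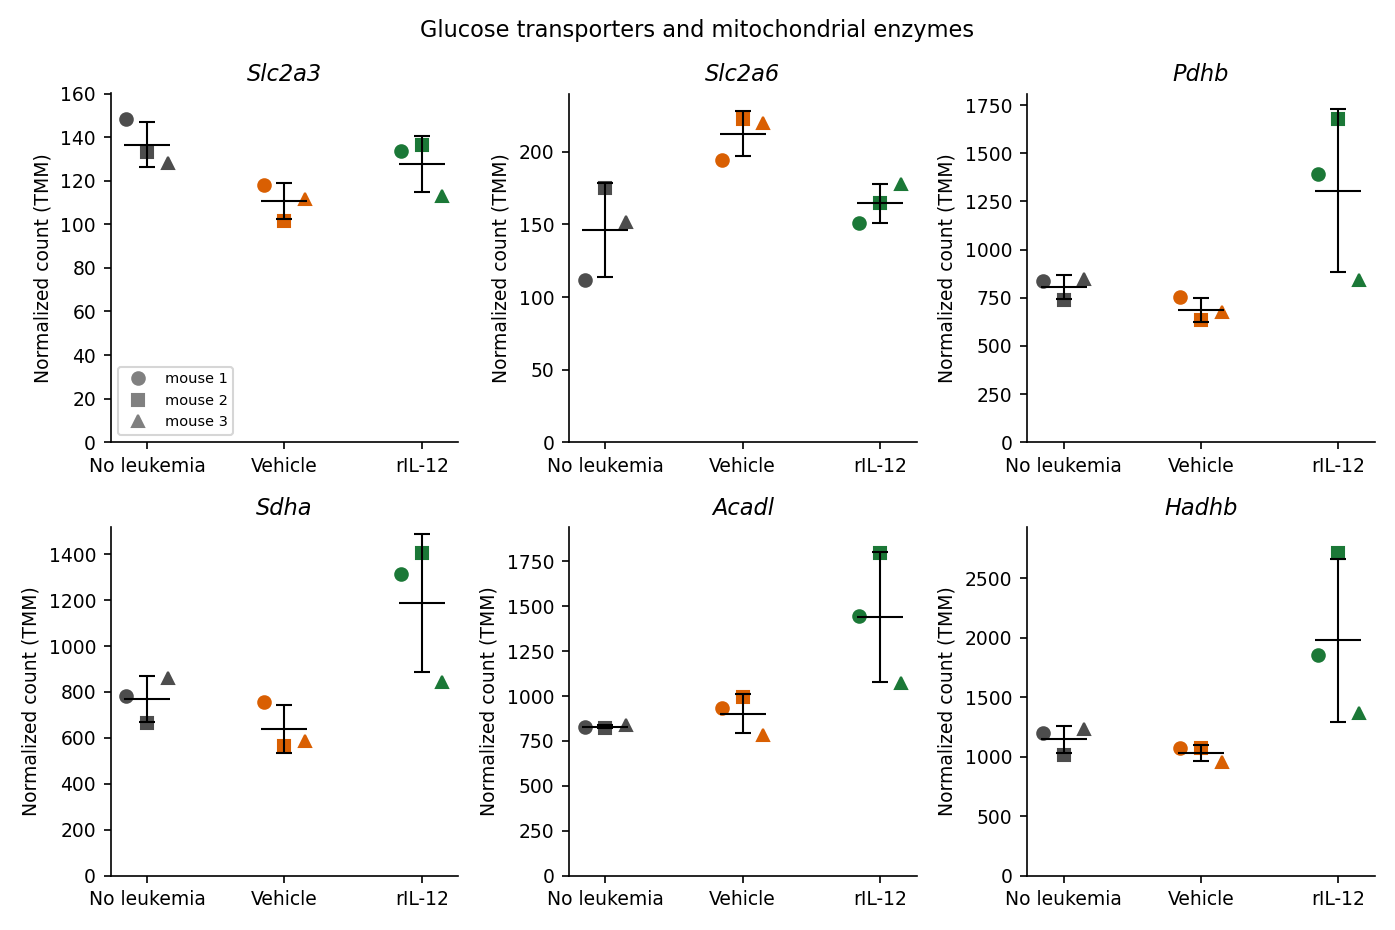
TMM-normalized counts (vertical axis, starting at 0) of the glucose transporters Slc2a3 and Slc2a6 and the mitochondrial enzymes Pdhb, Sdha, Acadl and Hadhb in each mouse, with the group mean and 1 SD (n = 3). The 4 enzymes were highest in rIL-12 mouse 2 and lowest of the rIL-12 group in mouse 3, whereas Slc2a6 was highest with vehicle (194.5 to 222.4).

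Other features of the samples moved with rIL-12 beside these genes. T-cell markers were lower: 10 of 11 passed as lower with rIL-12 against no leukemia (median log2 fold change -1.47), where 8.66% of all probes did, and 2 of 11 with rIL-12 against vehicle (5.22% of probes) and with vehicle against no leukemia (1.4% of probes). Their summed normalized counts were 5951 to 10210 without leukemia, 3494 to 5236 with vehicle and 1914 to 3432 with rIL-12. Of 4 proliferation genes with a probe, Ccnb1, which drives entry into mitosis, and Mcm5, part of the replicative helicase, rose with rIL-12 in both comparisons. That was 2 of 4 in each, where 8.92% of all probes passed as higher against no leukemia and 8.54% against vehicle. The log2 fold changes were 1.16 and 1.41 for Ccnb1, which passed under all 6 other scalings, and 0.62 and 0.71 for Mcm5, which passed under 2 of 6. Leaving out 1 mouse, Ccnb1 passed in 8 of 9 fits against no leukemia (not without mouse 1 of that group) and in 6 of 9 against vehicle (not without vehicle mouse 2 or 3 or rIL-12 mouse 2). Mcm5 passed in 4 of 9 against no leukemia (not without mouse 1, 2 or 3 of that group or rIL-12 mouse 1 or 2) and in 5 of 9 against vehicle (not without vehicle mouse 2 or 3 or rIL-12 mouse 1 or 2). The summed count of the 4 was 6634, 7284 and 4315 in rIL-12 mice 1, 2 and 3 against 3067 to 3789 in the other 6 mice.
Marker sums of other cells were 1450 to 1556, 1710 to 1962 and 1712 to 1955 for 8 B-cell genes, in the order no leukemia, vehicle and rIL-12, and 7860 to 9255, 8627 to 11860 and 8967 to 12080 for 9 myeloid genes. They were 1119 to 1412, 826.2 to 1078 and 951.2 to 1582 for 7 natural killer cell genes, and 944.4 to 1078, 1769 to 2080 and 1827 to 2089 for 3 mast cell or basophil genes. With vehicle against no leukemia, 1 B-cell and 2 mast cell or basophil genes passed as higher, where 10 of 785 probes did. With rIL-12 against no leukemia, 3 myeloid, 1 natural killer cell and 2 mast cell or basophil genes passed as higher (8.92% of probes). In that comparison 2 natural killer cell genes passed as lower (8.66% of probes). Against vehicle, 1 myeloid and 1 natural killer cell gene passed as higher with rIL-12 (8.54% of probes). There 2 B-cell genes and 1 myeloid gene passed as lower (5.22% of probes). The largest B-cell log2 fold change was 2.28 with vehicle against no leukemia, and the lowest was -1.85 with rIL-12 against vehicle. Btk had the highest counts of the 8 B-cell genes, 659 to 1580, and so weighs most in their sum. Tyrobp, an adaptor of myeloid and natural killer cell receptors, was at 3498 to 9963 counts and Csf1r, the macrophage growth factor receptor, 868 to 2043, both above the viral probe in all 9 mice. The defining markers Cd14 and Itgax (myeloid), Ncr1 and Gzma (natural killer) and Cr2 and Rag1 (B-cell) were below the viral probe in all 9 mice. No erythroid gene on the list had a probe. The part of cell makeup or proliferation in the Pgk1 difference was not tested.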

How the data were processed

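The authors deposited raw NanoString nCounter barcode counts, 785 probes by 9 samples, as the unit of all values; the nSolver normalization named in their methods is not in these counts, and no alignment is involved. Samples were grouped by their labels. Probes were tested with edgeR 4.0.16 (R 4.3.3) quasi-likelihood fits on all 9 samples with TMM scaling and no covariate, adjusted by Benjamini-Hochberg over 785 probes, with no filter on low counts. Total counts of 257613 to 711748 set the precision; only counting error is covered by the error given for a count. Within-mouse ratios were compared by exact permutation tests. Alternatives were 5 other scalings, DESeq2 1.42.0, the methods' t-test, 2 filters on low counts, a model of 2 groups, a robust spread, no fold threshold, a replicate block and leaving out each mouse; a housekeeping scaling without metabolic genes and the ratios of measured genes were added after seeing the data. The fits were tested on simulated data with changes larger than 1.5-fold and the same spread for all probes. Calls near 1.5-fold were not checked this way.

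The 10 genes and the lists were chosen with earlier results of these data known. Each measured gene of the 10 was named in full; of the wider lists, every gene that passed (applied list by list to the pathway lists, with marker lists given as counts), and for Pgk1 the probe with the most similar profile. Slc2a3 and Slc2a6 were described because they are glucose transporters, after their values were seen. The values of 1 gene of the wider lists are not reported here. Promoters come from RefSeq. Probe sequences were not used here, so probes that could also capture near-identical transcripts of related genes were not checked.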

Additional observations from a re-analysis of the deposited data

How the results depend on the processing

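With vehicle against no leukemia, 0 of the 3 glycolysis genes passed under any alternative, and all 3 kept their direction. With rIL-12 against no leukemia the 1 gene that passed became 0 with the total count, the housekeeping genes (with or without G6pdx and Sdha), quantile normalization and the methods' t-test (log2 fold changes of Pgk1 of 0.429, 0.311, 0.36, 0.237 and 0.60); the count was 0 to 1 when each mouse was left out. With rIL-12 against vehicle it became 1 with median scaling and with no fold threshold. Pgk1 stayed higher with rIL-12 in every alternative. Aldoa with rIL-12 against no leukemia reversed with the total count (-0.0969), the housekeeping genes (-0.209), the housekeeping genes without metabolic genes (-0.163), quantile normalization (-0.192) and on leaving out a mouse (-0.0696 to 0.159). Ldha, and with it the median of the 3 genes, with rIL-12 against vehicle reversed with the same settings (-0.105, -0.312, -0.273 and -0.144) and on leaving out a mouse (-0.0213 to 0.203). Under these scalings other than quantile normalization, Aldoa and Ldha stayed above the median of all probes in those comparisons. With the replicate block, Pgk1 with rIL-12 against no leukemia was 0.605 (adjusted p = 0.0302, edgeR) and against vehicle 0.496 (adjusted p = 0.0645), and no call among the 3 genes changed; same-numbered mice correlated at -0.182 to 0.332, above 0.1 in every pair only for vehicle and no leukemia. The cause of these changes was not tested. Ratios of Hk2 to Hk1 and Pfkp to Pfkl were planned and not run, since none of these genes was matched to a probe. Depth did not limit the 3 genes, whose counts were 2074 or more; it limits Pck1 and Pdk4.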
